A study of Mus musculus with 6 samples.

Results

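Cdx1, Cdx2, Cdx4 and Evx1 encode homeodomain transcription factors of the posterior embryo, and their transcripts were followed in mouse embryoid bodies with and without induction of miR-200c and miR-141. The 4 genes were chosen by name, out of 18193 genes represented on the arrays, and each was read from the probe set that carried its symbol alone and had the highest mean over the arrays. Cdx2 had 2 such probe sets and the other genes had 1 each. RNA had been measured on 6 Affymetrix MOE430 2.0 arrays. The induced embryoid bodies were made from A2.miR200c ES cells, which transcribe both microRNAs from a tetracycline-responsive promoter, and were treated with 500 ng/mL doxycycline on days 2 and 4 of differentiation in Petri dishes, so that the array of day 3 precedes the second dose. The untreated embryoid bodies came from the same line and received none. Each treatment gave 1 array on each of days 3, 4 and 5. There was therefore no replicate within a day, and all cells derive from a single engineered line. The p-values measure only the spread of the daily differences around a constant effect. Where a change linear in day was fitted, they measure only the departure from a straight line. No array holds doxycycline-treated cells without the inducible microRNAs, so an effect of doxycycline cannot be told apart from that of the microRNAs.

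The Cdx genes are the vertebrate relatives of Drosophila caudal. In the mouse they are switched on in the posterior primitive streak and tailbud, where they act downstream of Wnt, FGF and retinoic acid signals, activate Hox genes and keep the body axis growing. Cdx2 is in addition a determinant of the trophoblast of the blastocyst and later of the intestinal epithelium, Cdx1 shares the intestinal role, and Cdx4 is known for its part in embryonic blood formation. Evx1, a relative of Drosophila even-skipped, lies next to the HoxA cluster and is strongest in the posterior streak, where it responds to Nodal, BMP and Wnt signals.

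The induced microRNAs are shown first because they are the treatment, with bases 2 to 8, the seed, in capitals. The sequences are those of RefSeq on GRCm38.p6, where both lie on the minus strand of chromosome 6, at 124718324-124718346 for miR-200c-3p and at 124717917-124717938 for miR-141-3p. The seeds differ by 1 substitution, U4C, counted from the 5′ end of the mature microRNA, with the base of miR-200c-3p given first.
mmu-miR-200c-3p: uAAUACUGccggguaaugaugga
mmu-miR-141-3p: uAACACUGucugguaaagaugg

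The sequences upstream of 3 of the genes are shown because they share a short element although the genes behaved differently on the arrays. The sequence upstream of Cdx1 is not shown, and whether it holds the element is not reported here. The element is therefore not described as a trait of the whole set. Each is the stretch of 250 bases before the annotated start in RefSeq on GRCm38.p6, written 5′ to 3′ along the gene. The Cdx2 stretch is chr5:147307250-147307499 on the minus strand, the Cdx4 stretch chrX:103321148-103321397 on the plus strand and the Evx1 stretch chr6:52313248-52313497 on the plus strand. The capitals mark the octamer ATGCAAAT, or ATTTGCAT where it is read on the opposite strand.
Cdx2: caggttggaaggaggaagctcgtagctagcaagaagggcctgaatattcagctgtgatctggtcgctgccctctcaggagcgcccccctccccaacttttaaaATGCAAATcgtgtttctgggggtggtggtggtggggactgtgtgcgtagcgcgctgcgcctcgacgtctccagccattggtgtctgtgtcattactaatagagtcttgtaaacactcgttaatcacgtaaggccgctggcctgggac
Cdx4: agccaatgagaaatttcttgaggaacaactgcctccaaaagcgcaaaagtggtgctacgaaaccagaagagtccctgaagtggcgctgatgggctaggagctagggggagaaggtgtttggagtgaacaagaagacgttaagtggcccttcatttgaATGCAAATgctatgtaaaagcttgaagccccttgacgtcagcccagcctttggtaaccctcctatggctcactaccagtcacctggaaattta
Evx1: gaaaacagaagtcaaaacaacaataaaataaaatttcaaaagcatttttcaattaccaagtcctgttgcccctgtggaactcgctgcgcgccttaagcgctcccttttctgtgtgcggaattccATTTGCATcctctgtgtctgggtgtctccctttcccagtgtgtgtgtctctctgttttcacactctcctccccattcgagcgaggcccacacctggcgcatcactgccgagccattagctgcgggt

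The octamer, the recognition sequence of POU domain factors, began 147 bases upstream of the annotated start of Cdx2 and 93 bases upstream of that of Cdx4. In Evx1 it lay 126 to 119 bases upstream on the opposite strand. It was searched for on both strands after the sequences had been read, and 526 of 32851 upstream windows of this length (1.601%) held it. Because the element was picked from the sequences shown, without that of Cdx1, this share is only a description. The core CTTTG of TCF/LEF sites, the nuclear end of Wnt signalling, was found in the Cdx4 window, 46 to 42 bases upstream, against 48.577% of all windows. Among the windows shown, the core TTTAT of Cdx sites was found in that of Evx1 only, against 37.262% of all windows. It lay at 228 to 224 and at 223 to 219 bases upstream on the opposite strand. None of the octamer matches overlapped these matches. The whole Evx1 window lies inside the annotated span of Evx1os, a long noncoding RNA that overlaps the start of Evx1.

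Values are model-based intensities on a linear scale. A background level of 36.7 was set at the 95th percentile of 78 receptor genes for smell, pheromones, trace amines and taste, which ES cells are not expected to use. Differences were taken on log2(intensity + 50), a scale that damps the change of weakly expressed genes, and a gene entered the tests if its highest value reached 80.1, the median of all gene values. This left 9997 genes, with 2 of the 4 among them. Evx1 passed through both treatments and Cdx2 through the untreated arrays of days 4 and 5 alone, whereas Cdx1 and Cdx4 were not tested. The median intensity of the arrays lay between 34.5 and 36.9, and the median difference between treatments over all tested genes was at most 0.02 on the log2 scale on any day. Cells of the ES lineage were present throughout, since the pluripotency factor Pou5f1 measured 4665, 4751 and 2940.2 in induced embryoid bodies and 4858, 4560.0 and 1014 in untreated embryoid bodies on days 3, 4 and 5. Zeb2, a known target of the miR-200 family, measured 24.8, 32.7 and 55.8 in induced and 43.7, 97.6 and 237 in untreated embryoid bodies. It was lower under induction on each day, with induced values below background on days 3 and 4. Zeb1, another such target, measured 132, 196 and 169 in induced and 131, 256 and 403 in untreated embryoid bodies, not lower on day 3. All 4 listed miR-200 targets were lower under induction on days 4 and 5.

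**Figure D1:**
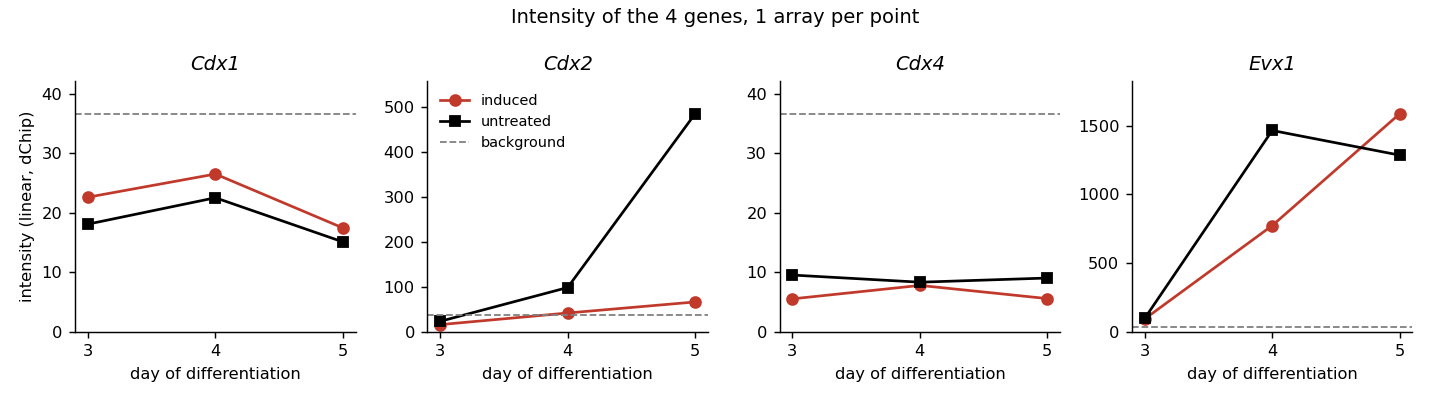
Intensity (linear scale, own axis for each gene) of Cdx1, Cdx2, Cdx4 and Evx1 against the day of differentiation, with 1 array per point; induced embryoid bodies are red circles, untreated ones black squares and the dashed line is the background of 36.7. Cdx1 and Cdx4 lie under the line on all 6 arrays, Cdx2 reaches 485 on the untreated array of day 5 against 66.4 on the induced array, and the Evx1 lines cross between days 4 and 5.

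Cdx1 and Cdx4 stayed below background on all 6 arrays. Cdx1 (Entrez Gene 12590) measured 22.6, 26.5 and 17.5 in induced embryoid bodies on days 3, 4 and 5, against 18.1, 22.5 and 15.1 in untreated embryoid bodies. Its induced values lay slightly above the untreated ones on each day, by 0.09, 0.08 and 0.05 on the log2 scale, and both sets were in the range of the receptor genes. Cdx4 (Entrez Gene 12592) measured 5.54, 7.80 and 5.58 in induced and 9.54, 8.34 and 9.04 in untreated embryoid bodies. Its induced values lay under the untreated ones on each day, by 0.10, 0.01 and 0.09 on the log2 scale, far inside the background range. Under this background the values give no level or difference that could be told from that of genes not in use, and each gene was read by a single probe set.

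Cdx2 (Entrez Gene 12591) appeared in untreated embryoid bodies and remained near background in induced ones. The main probe set measured 15.9, 41.8 and 66.4 in induced embryoid bodies on days 3, 4 and 5, against 23.3, 98.6 and 485 in untreated embryoid bodies. Both arrays of day 3 were below background, the induced array of day 4 was just above it, and the untreated array of day 5 stood above all others. In order of level, untreated day 5 and untreated day 4 were followed by induced day 5 and induced day 4, so the latest induced embryoid bodies had not reached the untreated level of the day before. With 1 array for each, no spread exists against which neighbours in this order could be set. The induced value was lower on 3 of 3 days, by 0.15, 0.69 and 2.20 on the log2 scale, and on day 5 the untreated intensity was 7.31 times the induced one. In bulk RNA, fewer Cdx2-positive cells and less Cdx2 RNA per cell cannot be told apart.

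Set against all 18193 genes, with no filter, 2545 genes had a lower value for induced minus untreated than Cdx2 on day 3, 109 on day 4 and 17 on day 5. An at least 2-fold lower value under induction was found for 0.01% of the tested genes on day 3, 0.5% on day 4 and 1.52% on day 5, and Cdx2 was past this fold on day 5 only. At least 2-fold higher values were found for 0.08% of the genes on day 4 and 1.97% on day 5, with neither Cdx2 nor Evx1 among them.

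**Figure D2:**
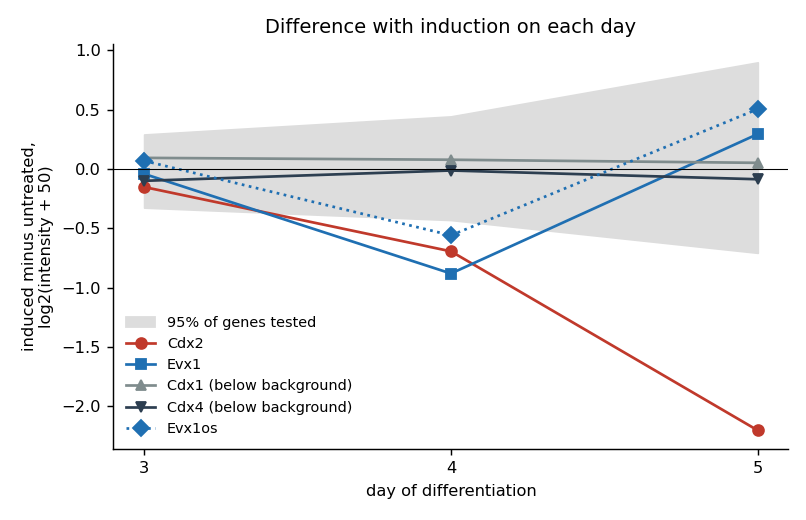
Difference between induced and untreated embryoid bodies, in log2(intensity + 50), against the day of differentiation for the 4 genes and for Evx1os; the grey band holds the middle 95% of the tested genes on each day. Cdx2 falls away from the band to -2.20 on day 5, Evx1 leaves it on day 4 at -0.88 and is back inside on day 5 at 0.29.

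The mean difference of Cdx2 over the 3 days was -1.02 ± 1.06 (SD over days, n = 3). As an effect of induction common to all days, in limma's fit with day as a factor, it had a standard error of 0.40 and a 95% interval of -2.03 to -0.002. Its adjusted p over the tested genes was 0.573. No gene passed in this fit (0% called), 842 genes had an unadjusted p under 0.05, and the difference of Cdx2 between treatments therefore did not pass the test. The change of the effect per day was -1.02 (SE 0.17, 95% interval -1.44 to -0.61), with an adjusted p = 0.132 in limma's test of treatment by linear day. Here 0% of the genes were called lower and 0% higher, and 1322 had an unadjusted p under 0.05, of which Cdx2 ranked 74th. When the linear change was kept in the fit, the same mean difference had a standard error of 0.14 and an adjusted limma p of 0.036, on 1 residual degree of freedom. In that fit Cdx2 was 1 of 42 genes called lower (0.42%), with 103 called higher. Cdx2 passed the filter on low values through untreated arrays alone, so this call is a description. Without the filter on low values, a setting added after seeing the data, its adjusted limma p in that fit was 0.028, with 39 genes called lower and 95 higher among 18193.

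Cdx2 increased with time. Within treatments, the step between days 3 and 4 was 0.48 on the log2 scale in induced and 1.02 in untreated embryoid bodies, and that between days 4 and 5 was 0.34 in induced and 1.85 in untreated embryoid bodies. Both untreated steps exceeded 2-fold and neither induced step did. Over both treatments, day 5 minus day 3 was 1.84 (SE 0.48) with an adjusted limma p of 0.035, among 20.6% of the tested genes called higher in that comparison. This pools a rise of 0.82 in induced and 2.87 in untreated embryoid bodies. Cdx2 passed the filter on low values through untreated arrays alone, so this call is a description. Day 4 minus day 3 was 0.75 (adjusted p = 0.336) and day 5 minus day 4 was 1.10 (adjusted p = 0.196) in the same limma fit, and neither passed. The increase between days 3 and 5 also missed the threshold without the arrays of day 4 (adjusted p = 0.068) and without limma's intensity trend (adjusted p = 0.053).

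The second Cdx2 probe set measured 4.34, 7.37 and 7.60 in induced embryoid bodies, against 8.52, 8.47 and 18.3 in untreated embryoid bodies. All of its values were below background, and its highest was again the untreated array of day 5. Its difference on day 5 was -0.25, in the direction of the -2.20 of the main probe set. The level of Cdx2 above background thus rests on 1 probe set.

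Evx1 (Entrez Gene 14028) was well above background on all 6 arrays and increased steeply in both treatments. It measured 93.5, 773 and 1587 in induced embryoid bodies on days 3, 4 and 5, against 97.7, 1465 and 1286 in untreated embryoid bodies. The treatments began at nearly the same value, the untreated intensity was 1.90 times the induced one on day 4, and on day 5 the induced embryoid bodies were higher. The order of levels was induced day 5, untreated day 4, untreated day 5, induced day 4 and then the 2 arrays of day 3. The highest value of each treatment thus fell on day 5 with induction and on day 4 without it.

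On the log2 scale, induced minus untreated was -0.04, -0.88 and 0.29 for Evx1 on days 3, 4 and 5, with a mean of -0.21 ± 0.60 (SD over days, n = 3). On day 4, 64 of the 18193 genes had a lower value, and on day 5, 1763 had a higher one. The common effect of induction was -0.21 (SE 0.23, 95% interval -0.80 to 0.38, adjusted p = 0.788 in limma), and the change of the effect per day was 0.17 (SE 0.26, 95% interval -0.47 to 0.80, adjusted p = 0.831). Neither passed, and a term linear in day measures only a steady change. Without the arrays of day 4 the mean difference turned to 0.13 (adjusted p = 0.955). Opposite signs of this kind, lower on day 4 and higher on day 5, were found in 1890 of the tested genes (18.9%). Of the 50 genes that were at least 2-fold lower on day 4, 17 were higher on day 5 and 11 were at least 2-fold lower again.

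The time course of Evx1 was past the threshold. Day 4 minus day 3 was 2.94 (SE 0.28, adjusted p = 0.020 in limma), among 4.44% of the genes called higher, and day 5 minus day 3 was 3.34 (SE 0.28, adjusted p = 0.0024). Day 5 minus day 4 was 0.41 (adjusted p = 0.370), where 3.8% of the genes were called higher. Within treatments, the step between days 3 and 4 was 2.52 in induced and 3.36 in untreated embryoid bodies, when 1.18% and 1.91% of the tested genes were at least 2-fold higher. The step between days 4 and 5 was 0.99 in induced and -0.18 in untreated embryoid bodies, when 2.02% and 2.94% of the genes were at least 2-fold higher. On these single arrays Evx1 was higher on day 5 than on day 4 with induction and slightly lower without it. A difference in timing between the treatments was not tested.

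Evx1os, whose annotated span (chr6:52308389-52314832) covers the start of Evx1, was read by its own probe set and moved with Evx1. The probe sequences, and any overlap between them, were not analysed here. It measured 17.5, 77.0 and 199 in induced embryoid bodies, against 14.4, 137 and 126 in untreated embryoid bodies, with differences of 0.07, -0.56 and 0.50 on the log2 scale. Again the induced value was lower on day 4 and higher on day 5. Over the 6 arrays its r with Evx1 was 0.978, a description that includes the shared time course. Day 5 minus day 3 was 1.67 (SE 0.26, adjusted p = 0.0090 in limma), and the common effect of induction was 0.004 (adjusted p = 0.996). Cdx2 and Evx1 were less alike, with r = 0.639 over the same 6 arrays.

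The other measured genes described around the 4 loci were protein-coding, with positions from RefSeq on GRCm38.p6. Genes without a probe set read here lay nearer in places. They were Gm35112 (2921 bp) and Urad (7734 bp) at Cdx2, Gm9516 (1178 bp) at Cdx4 and Gm52351, which overlaps Cdx1. At Evx1 they were Hottip (45894 bp) and Gm8129 (28300 bp). Evx1 lies at chr6:52313498-52318389, with Hoxa13, a Hox gene of the distal limb and hindgut, 52617 bp before it and Hibadh, a gene of valine breakdown, 227840 bp after it. Hoxa13 was below background on all arrays, whereas Hibadh measured 1022, 1385 and 1495 in induced and 1025, 1420.3 and 1426 in untreated embryoid bodies. Cdx2 lies at chr5:147300900-147307249, with Pdx1, the pancreatic ParaHox factor, 25051 bp before it and below background on all arrays. Cdx4 lies at chrX:103321398-103330224, and Chic1, 26178 bp after it, measured 281, 221 and 196 in induced and 300.3, 160.5 and 230.5 in untreated embryoid bodies.

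Cdx1 lies on chromosome 18 at 61018862-61036199. Pdgfrb, a receptor of mesenchymal cells, starts 8927 bp after it, and measured 54.8, 103 and 218 in induced embryoid bodies, against 34.4, 206 and 1126 in untreated embryoid bodies. Its untreated level was higher on each later day, and its difference was -2.14 on day 5. The change of that effect per day was -1.22 (SE 0.11, adjusted p = 0.105 in limma) and did not pass. Slc6a7, the transporter gene on the other side, was below background on all arrays.

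The genes whose profiles were most like that of Cdx2 over the 6 arrays, among 1564 tested genes with a range of at least 1 on the log2 scale, were Inka1, Lmo2 and Ramp2 with r = 0.992, 0.990 and 0.986. Inka1 encodes an inhibitor of the kinase Pak4, Lmo2 a blood and endothelial cofactor and Ramp2 a receptor partner of the endothelium. Lmo2 measured 75.8, 82.1 and 167 in induced embryoid bodies, against 71.4, 191 and 741 in untreated embryoid bodies. As with Cdx2, the treatments separated on day 4 and more widely on day 5. For Evx1 the most similar genes were Mcc, a gene named from colorectal cancer, Lhx1, a LIM homeodomain factor of the node and early mesoderm, and Tmem185a, a transmembrane protein gene, with r = 0.999, 0.997 and 0.996. Lhx1 measured 23.7, 813 and 2502 in induced and 23.0, 2208 and 1307 in untreated embryoid bodies, with differences of 0.01, -1.39 and 0.91. These r values describe 6 arrays that share a time course.

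**Figure D3:**
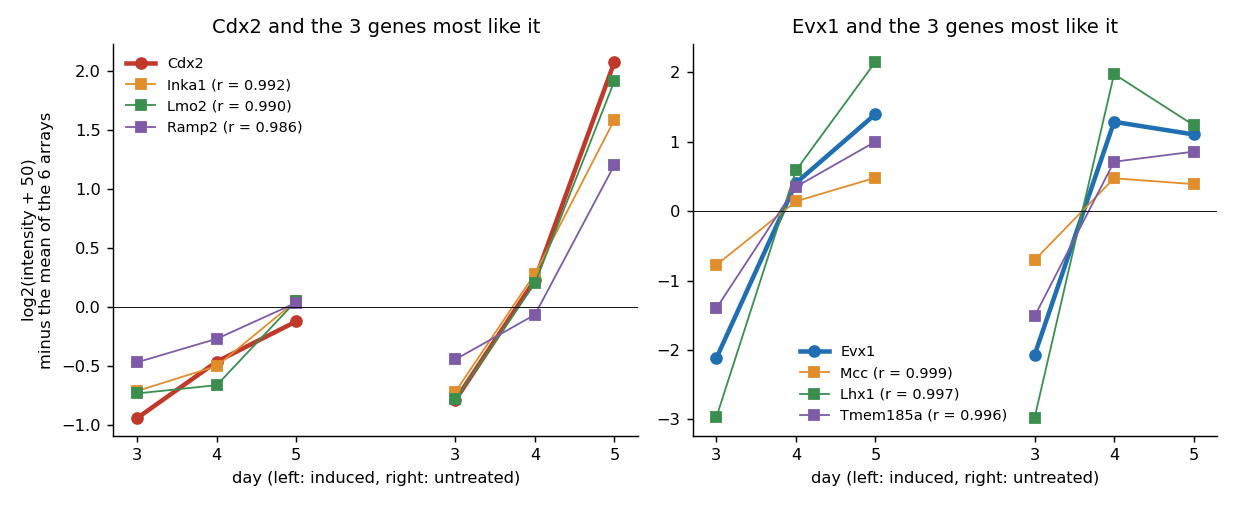
Profiles of Cdx2 (left panel) and Evx1 (right panel) with the 3 genes most like each over the 6 arrays, as log2(intensity + 50) minus the gene's own mean over the arrays, with induced days 3 to 5 on the left of each panel and untreated days 3 to 5 on the right. The genes like Cdx2 stay low on the induced arrays and climb on untreated days 4 and 5, and those like Evx1 climb in both treatments with a higher induced value on day 5.

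Ligands and enzymes of the signals upstream of these factors did not all move alike. Of the 14 posterior signal genes, 11 were tested, 6 were lower on day 4 and 5 on day 5 under induction, with medians of -0.12 and 0.32 against 0.02 over all tested genes on both days. None was called for induction or for the change per day in limma. Wnt5a, a noncanonical Wnt ligand, measured 7.26, 72.0 and 468 in induced embryoid bodies, against 11.1, 325 and 940.3 in untreated embryoid bodies. Fgf8, a ligand of the streak and tailbud, measured 203, 974 and 1239 in induced and 259, 1066 and 283 in untreated embryoid bodies. Nodal, the ligand that starts the streak, measured 2217, 2765 and 2125 in induced and 2219, 2352 and 444 in untreated embryoid bodies. Wnt5a was lower under induction on days 4 and 5, whereas Fgf8 and Nodal stood higher on day 5.

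Transcription factors and Notch genes of the streak and tailbud mostly took the course of Evx1. Of the 17 listed, 15 were on the arrays and 12 were tested. On day 4, 11 of the 12 were lower under induction, with a median of -0.52, and on day 5 only 3 were lower, with a median of 0.40 and 8 were lower on day 4 but higher on day 5. Of all 15 on the arrays, 14 were lower on day 4 and 4 on day 5. None was called for induction or for the change per day, and 6 of the 12 were called higher in day 5 minus day 3, against 20.6% of all tested genes. Lower on day 4 and higher on day 5 were 18.9% of all tested genes. Mesp1, a factor of the first mesoderm, measured 32.7, 193 and 660.4 in induced embryoid bodies, against 38.1, 684 and 709 in untreated embryoid bodies. Sp5, a direct Wnt target, measured 93.7, 1378 and 1850.0 in induced and 98.0, 1955 and 627 in untreated embryoid bodies. Nkx1-2, a factor of the caudal epiblast, behaved more like Cdx2, at 24.6, 45.0 and 38.3 in induced and 41.9, 85.9 and 184 in untreated embryoid bodies.

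The genes of the anterior streak and node mostly shared the signs of Evx1 on days 4 and 5. Of 10 listed genes 8 were tested, of which 7 were lower on day 4 (median -0.41) and 1 on day 5 (median 1.03), and 6 were lower on day 4 but higher on day 5, against 18.9% of all tested genes. The day 4 median was closer to 0 than the -0.88 of Evx1, and on day 5 some members, among them Hhex at 0.05 and Dkk1 at 0.16, lay under the 0.29 of Evx1. Cer1, a secreted inhibitor of Nodal, BMP and Wnt, measured 5.48, 226 and 2046 in induced embryoid bodies, against 4.26, 913 and 432 in untreated embryoid bodies. Gsc, the organizer factor, measured 16.3, 388 and 1012 in induced and 13.6, 605 and 180.5 in untreated embryoid bodies. Otx2, an anterior factor already present in the epiblast, measured 1777, 2088 and 1669 in induced and 1836, 1748 and 340 in untreated embryoid bodies. Evx1 resembled Cer1 and Gsc in its sign on each of days 4 and 5, but its day 5 difference of 0.29 was well below theirs, which were over 2.

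The Hox genes, which Cdx factors are known to activate, were mostly at or under background. Of the genes of paralogue groups 1 to 4, 10 of 12 were on the arrays and 4 were tested, and of groups 5 to 9, 13 of 15 were on the arrays and 2 were tested. None of the 10 genes of groups 10 to 13 reached the level needed for a test, and 7 of them were below background on all arrays. Hoxb2, a factor of the hindbrain and early mesoderm, measured 15.4, 19.8 and 111 in induced embryoid bodies, against 24.7, 101 and 1128 in untreated embryoid bodies. It was the group 1 to 4 gene that differed most, with a change per day of -1.34 (SE 0.15, adjusted p = 0.109 in limma). Hoxd1 measured 9.44, 9.51 and 19.3 in induced and 12.1, 19.6 and 155 in untreated embryoid bodies. Both were highest on the untreated array of day 5, as Cdx2 was, and Hoxd1 passed the filter on low values through that array alone. The other tested Hox genes differed little or the other way on day 5, with Hoxa3 at 0.06, Hoxb3 at -0.16, Hoxa5 at 0.58 and Hoxc6 at -0.11 on the log2 scale. Over all Hox genes on the arrays, 8 of 10 of groups 1 to 4, 8 of 13 of groups 5 to 9 and 7 of 10 of groups 10 to 13 had a lower induced value on day 5, most of them at background levels. Evx2, the paralogue of Evx1 beside the HoxD cluster, measured 72.0, 131 and 128 in induced and 102, 102 and 89.1 in untreated embryoid bodies, with no step like that of Evx1 in either treatment.

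**Figure D4:**
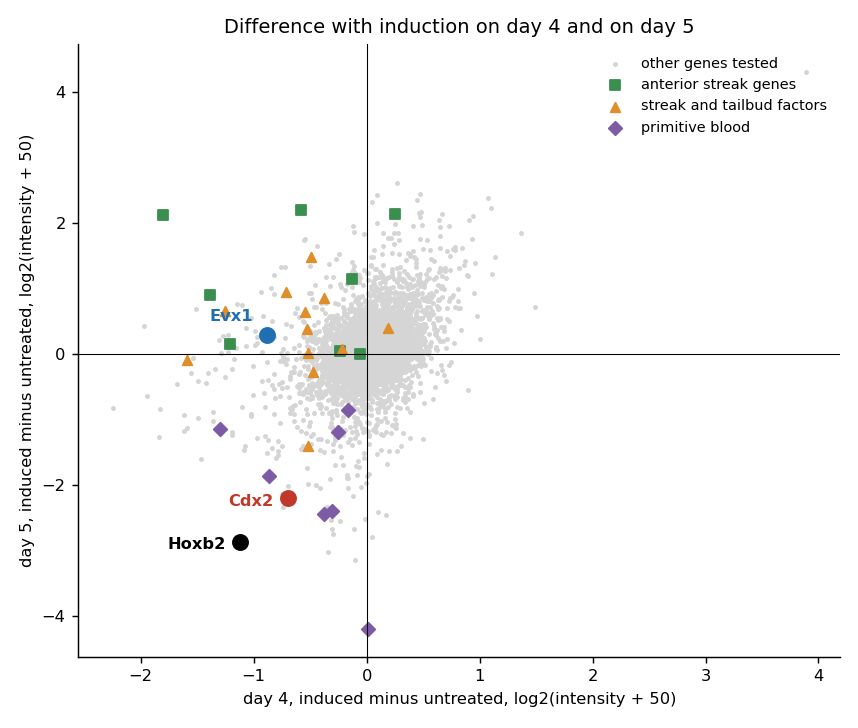
Difference between induced and untreated embryoid bodies on day 4 (horizontal axis) and on day 5 (vertical axis), in log2(intensity + 50); each point is a tested gene, coloured by list, and Cdx2, Evx1 and Hoxb2 are named. Cdx2 and Hoxb2 lie at the lower left with most of the primitive blood genes, and Evx1 lies at the upper left with most of the streak genes.

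Markers of the tissues in which Cdx2 is best known were mostly weak. Of 12 trophoblast genes, 11 were on the arrays and 4 were tested, and Elf5, Ascl2, Tpbpa and Tead4 were below background on all arrays. Of all 11 on the arrays, only 5 were lower under induction on day 4 and 5 on day 5. All 4 tested genes were lower on day 4, by less than 2-fold. On day 5, 2 of the 4 were lower, 1 of them by at least 2-fold, against 1.52% of all tested genes. The other 2, Tfap2a and Tfap2c, were higher under induction on day 5, by 0.33 and 0.35 on the log2 scale. None of the 4 was called for induction or the change per day. Gata3, a trophoblast factor also used in other lineages, measured 3.39, 10.9 and 55.6 in induced and 7.90, 30.1 and 81.3 in untreated embryoid bodies. The induced value was the lower one on each day, but all values of days 3 and 4 were below background. Gata3 rose between days 3 and 5 (log2 1.08, adjusted p = 0.0059 in limma). It passed the filter on low values through the untreated array of day 5 alone, so this call is a description. The summed intensity of the list was 410.2, 465 and 632 in induced embryoid bodies and 453, 531 and 967 in untreated embryoid bodies. Hand1, a gene of trophoblast giant cells and of lateral mesoderm, measured 69.2, 83.0 and 128 in induced and 73.6, 92.2 and 528 in untreated embryoid bodies. On day 5 Hand1 differed by more than the summed list did, so the other listed genes together were higher under induction. Of 15 intestinal genes, 13 were on the arrays, 10 were below background on all of them and 1 was tested. Its value, that of Mep1a, ranged between 67.5 and 108 in induced and between 66.1 and 88.6 in untreated embryoid bodies. The part of trophoblast cells in the Cdx2 difference was not tested.

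Primitive blood genes and most of the genes used as markers of feeder fibroblasts differed in the same direction as Cdx2 on day 5. Of 11 blood genes 7 were tested, and all 7 were lower under induction on day 5, 6 of them by at least 2-fold, against 1.52% of all tested genes, with a median of -1.87. Most of these, like Cdx2, passed the filter on low values through untreated arrays alone. That filter favours genes with a lower induced value, so the count beside the share of all tested genes is only a description. Of all 11, measured without that filter, 11 were lower on day 5. None was called for induction or the change per day in limma, and 3 of the 7 were called higher in day 5 minus day 3, against 20.6% of all tested genes. The embryonic globin Hbb-bh1 measured 4.20, 7.71 and 40.0 in induced embryoid bodies, against 7.12, 7.32 and 1600.4 in untreated embryoid bodies. Tal1, the master factor of blood, measured 23.2, 7.52 and 30.4 in induced and 20.0, 24.9 and 389 in untreated embryoid bodies. The 7 fibroblast genes, of which 4 were tested and 1 was below background on all arrays, summed to 468, 708 and 929.9 in induced and 490.4, 628 and 2147 in untreated embryoid bodies. Most of each sum was Acta2. On day 5, 6 of the 7 were lower under induction, and the 1 below background was higher. Postn passed the filter on low values through the untreated array of day 5 alone. Col1a1, a collagen also made by mesoderm, measured 5.78, 13.9 and 89.7 in induced and 2.22, 19.3 and 577 in untreated embryoid bodies. The part of feeder cells or of blood cells in the Cdx2 difference was not tested.

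Most pluripotency genes stood the other way on day 5. Of 6 genes, 5 were higher under induction and 2 of these by at least 2-fold, against 1.97% of all tested genes, while Dppa2 was at -0.16. The 6 genes summed to 18721, 13833 and 7605 in induced embryoid bodies, against 19218, 12719 and 3274 in untreated embryoid bodies, most of which was Pou5f1, Sox2 and Nanog, and their median difference on day 5 was 0.69. Nanog, a core factor of the pluripotent state, measured 2363, 3523 and 1555 in induced and 2777, 3181 and 394 in untreated embryoid bodies. Thus on the day on which Cdx2 separated most, the induced embryoid bodies held more pluripotency transcript, more transcript of the anterior streak and slightly more Evx1, and less of Cdx2, Hoxb2 and the blood genes. The part of the pluripotent cells in the Cdx2 and Evx1 values was not tested.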

How the data were processed

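The authors normalized and modelled the arrays in dChip and deposited 1 linear model-based intensity per probe set, with no detection calls; array number limits the precision. Of 45037 probe sets, 34945 carried a single gene symbol in the platform annotation and were used, while 932 with several and 9160 with none were left out. Each gene was read from its probe set with the highest mean. The transform was log2(intensity + 50). Genes were tested in R 4.3.3 with limma 3.58.1 (lmFit, eBayes with intensity trend, two-sided) and Benjamini-Hochberg adjustment at 0.05 over all 9997 genes. Induction and day contrasts came from a fit with day as a factor (2 residual and 3.05 prior degrees of freedom), and treatment by linear day from a fit with 1 residual degree of freedom. The scripts were tested on simulated data of the same design. Within a day, and within a treatment, there is 1 array a side and no test, and 2-fold was counted. The genes and lists were chosen with earlier results of these data known. Named beside them were up to 3 genes per list with the largest difference on any day, the 3 genes most like each tested member by Pearson r, and their neighbours. Hhex, Dkk1, Hoxb3, Dppa2, Tfap2c, Elf5, Ascl2, Tpbpa and Tead4 fall outside that rule and were named after their values were seen. Some listed genes were not analysed here. Alternatives were pseudocounts of 16 and 100, no filter on low values, quantile normalization, no intensity trend, each day left out, the other Cdx2 probe set, the linear day term in the induction fit and, added after seeing the data, that term with no filter.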

Additional observations from a re-analysis of the deposited data

Results flagged for a closer look

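Evx1 was lower in induced than in untreated embryoid bodies on day 4, by 0.88 on the log2 scale, a difference of -0.881, and higher on day 5, by 0.294. The opposite signs on the 2 days drew attention to it. The difference between the days was not tested on its own, and the test of a change linear in day gave an adjusted limma p of 0.831. Evx1os, read by another probe set, had the same signs on both days, at -0.56 and 0.50.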

How the results depend on the processing

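Of 195 values recomputed under the alternatives, 172 kept their direction and their side of the threshold, or their size. With the linear day term in the induction fit, 145 genes were called and Cdx2, at -1.02, passed (adjusted p = 0.036), and without the filter on low values as well, an alternative chosen after seeing the data, 134 genes were called and Cdx2, at -1.02, passed (adjusted p = 0.028). The limma test of treatment by linear day called 11 genes with a pseudocount of 100 and 2 after quantile normalization, with Cdx2 at an adjusted p of 0.083 and 0.087. In that limma test Cdx2 had an adjusted p of 0.370 without the intensity trend and 0.910 with the other probe set. The adjusted p was 0.115 with a pseudocount of 16 and 0.136 without the filter on low values. Day 4 minus day 3 called 898 genes in both directions, 597 without the filter on low values, 554 without the intensity trend and 2958 without day 5. Day 5 minus day 4 called 613 genes, 170 without the trend and 241 without day 3. Day 5 minus day 3 called 3984 genes, and 2454 without day 4. With 1 day left out, induction called 0 to 2 genes, the Cdx2 difference ranged between -1.45 and -0.42, and that of Evx1 between -0.46 and 0.126, the sign turning without day 4. Cdx2 in day 4 minus day 3 passed without day 5 (adjusted p = 0.016). With the other Cdx2 probe set, the day 5 difference was -0.246, the untreated steps were -0.0012 and 0.224, and day 5 minus day 3 was 0.15 (adjusted p = 0.448). The untreated step of Cdx2 between days 3 and 4 was 0.69 with a pseudocount of 100, and the induced step of Evx1 between days 4 and 5 was 1.02 with a pseudocount of 16. The causes were not tested. With 1 array per treatment and day, no daily value carries an error, and Cdx1, Cdx4 and the second Cdx2 probe set lay within the background. The induction fit already pairs the arrays by day.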
